A study of Mus musculus with 13 samples.

Results

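Succinate dehydrogenase, or complex II, is the enzyme that oxidizes succinate to fumarate in the tricarboxylic acid (TCA) cycle and passes the electrons to ubiquinone in the inner mitochondrial membrane. Its genes were followed here in single mouse oocytes before and after meiotic maturation. The set holds 8 genes of the 18939 in the count tables, taken by symbol: the 4 subunits Sdha, Sdhb, Sdhc and Sdhd and the 4 assembly factors Sdhaf1, Sdhaf2, Sdhaf3 and Sdhaf4. All 8 were found in the count tables and in the FPKM table of 49686 genes, whose unit scales reads by transcript length and library depth, and all 8 passed the filter on low counts in every comparison. The symbols alone chose the members, but the set was proposed when results of these data were known, so the tests below describe these libraries and are not independent support for any pattern.

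The complex is built only from nuclear genes. SDHA is the flavoprotein that holds FAD and binds succinate, SDHB carries the iron-sulfur clusters, and SDHC and SDHD are the membrane anchors where ubiquinone is reduced. SDHAF2 is needed to attach FAD to SDHA, SDHAF4 binds the flavin-loaded SDHA before it joins SDHB, and SDHAF1 and SDHAF3 act in the maturation of SDHB. Fully grown mouse oocytes rely on mitochondrial oxidation of pyruvate for ATP, and complex II links that oxidation to the respiratory chain without pumping protons.

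Each library was made from 1 oocyte. The donors were C57BL/6 females aged 3 to 4 weeks, primed with PMSG 48 h earlier, and every oocyte was microinjected with mRNA for GFP-tagged fibrillarin (FBL–GFP), a nucleolar protein, and held for 6 h in Cilostamide, a phosphodiesterase inhibitor that keeps oocytes at the germinal vesicle (GV) stage. The FBL–GFP pattern then assigned each live oocyte to the non-surrounded nucleolus type (NSN) or the surrounded nucleolus type (SN), and the metaphase II (MII) oocytes were grown in culture from GV oocytes so assigned. There were 3 SN GV, 3 NSN GV, 4 MII oocytes matured from SN and 3 MII oocytes matured from NSN. The MII groups therefore hold only oocytes that completed maturation in culture, and no uninjected or ovulated oocytes were among these samples. No label ties an oocyte to an animal, so the p-values measure the spread between single oocytes, some of which may share a donor.

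Total counts ran from 7140416 to 8846287 per library, and 11579 to 13333 genes had a count. All 10 oocyte markers checked were present in every group, with a summed level of 12857 to 18160 FPKM at GV and 10109 to 12704 FPKM at MII. The 14 markers of cumulus and granulosa cells summed to 19.6 to 32.4 FPKM at GV and 35.9 to 59.1 FPKM at MII, with 4 or 5 of the 14 listed at 0 in each group and Foxl2 at 0 in all of them. Most of these sums was Cyp19a1, with group means of 20.04 and 22.3 FPKM at GV and 36.1 and 42.3 FPKM at MII. Other markers went the other way, with Fshr at 0 in all MII libraries and Cyp11a1 at group means of 0.98 and 1.48 FPKM at GV and 0.12 and 0.21 FPKM at MII. The part of these cells in the stage results was not tested. The third MII library from NSN had the fewest genes detected (11579), and results that rest on it are given with and without it. Values are relative to the other RNA of the same library, so less RNA of a gene per oocyte cannot be told apart from more RNA of other genes.

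In this protocol cDNA synthesis starts from the poly(A) tail, whose length was not measured. A change in tail length between the stages therefore cannot be told apart from a change in RNA amount. Any part of tail length in the stage results was not tested. For this reason the 3′ ends of the 8 transcripts are shown first. Each is a stretch of 30 bases of the annotated 3′ end in the GRCm38 build (the files' mm10), written 5′ to 3′ on the transcript's strand, with the polyadenylation hexamer in capitals.
Sdha, chr13:74322257-74322286, minus strand: aattgtaagccaAATAAAccctttctcaaa
Sdhb, chr4:140979163-140979192, plus strand: tacagcatatgtAATAAAcatttaagataa
Sdhc, chr1:171127168-171127197, minus strand: atgaatgcgtgtAATAAAggcttgtgtgct
Sdhd, chr9:50596357-50596386, minus strand: ctctgaaaaaacaaaatttttaAATAAAat
Sdhaf1, chr7:30321429-30321458, minus strand: ttgcataaaggaAATAAAagtgaggtgtgc
Sdhaf2, chr19:10500537-10500566, minus strand: tccaaaaaaattAATAAAcatattgccaag
Sdhaf3, chr6:7042943-7042972, plus strand: atgagtattttaAATAAAcatggagagtaa
Sdhaf4, chr1:23995949-23995978, minus strand: aatacatgtgtaAATAAAgacctcttgaaa
All 8 transcripts held the letters AATAAA in their last 100 bases, where AATAAA or ATTAAA was held by 78.7% of the 15233 annotated transcripts whose 3′ untranslated region spans at least 100 bases. The letters TTTTAT or TTTTAAT, which cytoplasmic polyadenylation elements contain, were in the last 100 bases of Sdhaf2 and of no other member, against 17.7% of those transcripts. For Sdhb only the 91 bases of its 3′ untranslated region were searched. Farther from the end of that region the letters also stood in Sdha (1 site), Sdhc (1) and Sdhaf3 (2), with no background share taken. Annotated 3′ untranslated regions ranged from 91 bases in Sdhb to 3922 bases in Sdhaf3, and the median over the same 15233 transcripts, which leave out Sdhb for its length, was 926 bases.

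At the GV stage the transcript of the anchor subunit Sdhd stood highest, at 180 ± 14.5 FPKM (SD, n = 6), followed by the assembly factor Sdhaf4 at 162 ± 41.9 FPKM and the other anchor subunit Sdhc at 120 ± 19.5 FPKM. Sdhd and Sdhaf4 overlapped, as did Sdhaf4 and Sdhc. Sdha at 66.7 ± 3.16 FPKM and Sdhb at 62.5 ± 12.7 FPKM came next and could not be ordered, since Sdha was the higher of the pair in 3 of 6 libraries. The remaining assembly factors were far lower, with Sdhaf2 at 16.0 ± 1.90 FPKM, Sdhaf1 at 7.58 ± 3.09 FPKM and Sdhaf3 at 2.89 ± 0.659 FPKM, of which the last pair overlapped. At MII the order was another. Sdhaf4 at 102 ± 50.4 FPKM (SD, n = 7) and Sdha at 98.5 ± 12.01 FPKM led with ranges that overlapped over the pooled types, Sdhc followed at 44.8 ± 20.05 FPKM, and Sdhd stood at 10.3 ± 3.91 FPKM. The order of the leading pair depended on the type, with Sdhaf4 above Sdha in 4 of 4 MII libraries from SN and Sdha above Sdhaf4 in 3 of 3 from NSN, without overlap in either. Sdhb, Sdhaf2, Sdhaf1 and Sdhaf3 all had means between 0.731 and 2.74 FPKM, and each overlapped the next in that order.

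**Figure D1:**
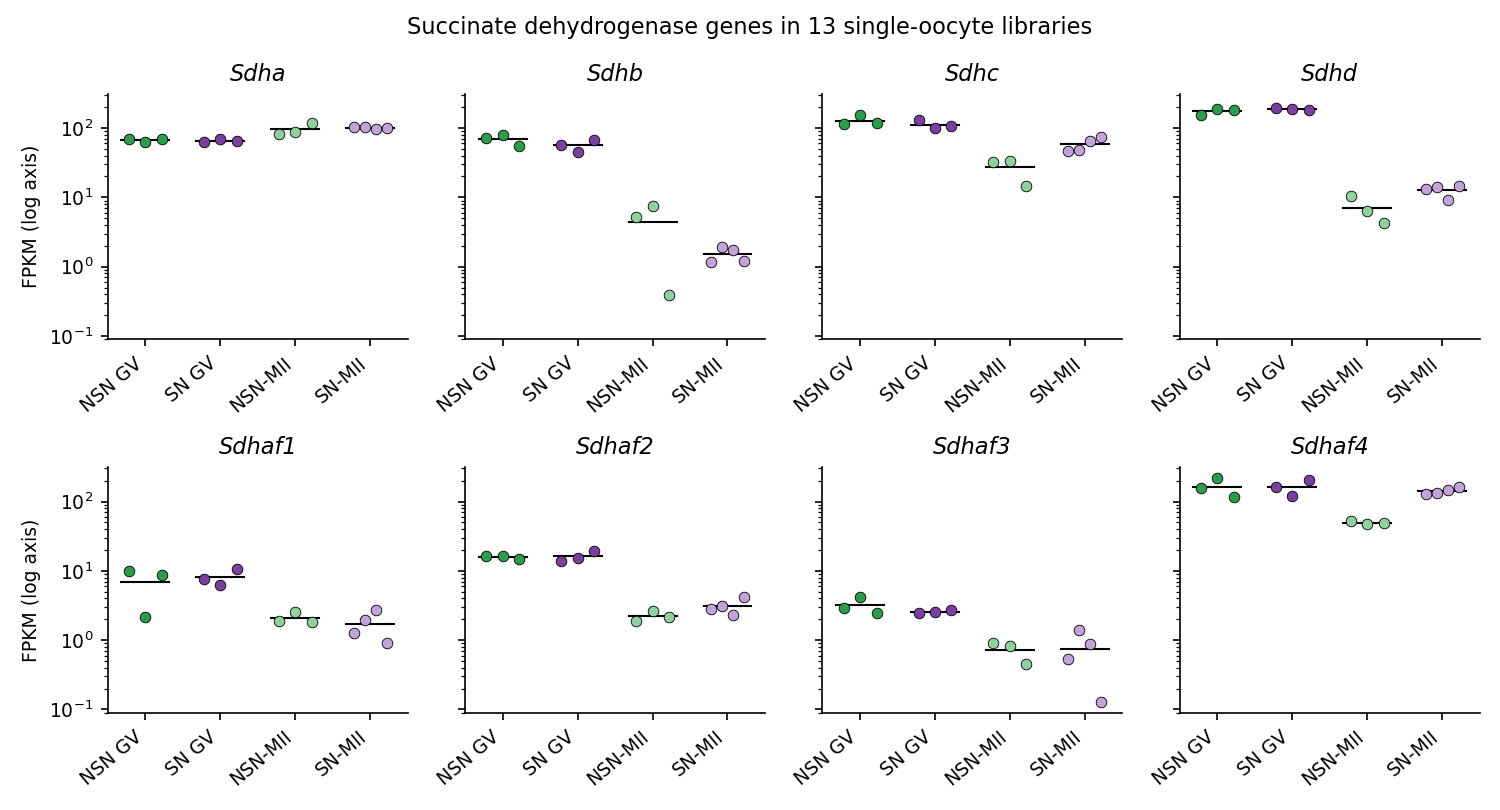
FPKM on a log axis of the 8 succinate dehydrogenase genes in 13 single-oocyte libraries, grouped by oocyte type and stage. Each point is 1 library and each bar the group mean. Sdha sits between 80.9 and 118 FPKM at MII, above all GV libraries, while Sdhb and Sdhd drop below all of theirs, and Sdhaf4 is lower only in the MII libraries from NSN.

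The first comparison set MII against GV oocytes, averaged over both types. All 8 members passed the edgeR quasi-likelihood test at an adjusted p under 0.05, 1 of them higher at MII (Sdha) and 7 lower. Among all 11375 genes tested, 68.6% were called, 31.7% as higher and 36.9% as lower. The median log2 fold change was -2.78 over the 4 subunits and -2.07 over the 4 assembly factors, beside -0.10 over all genes. Sdhb and Sdhd fell the most of the set, and neither leaving out any single library nor any other setting tried removed 1 of the 8 calls.

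Sdha was the exception in direction. Its values were 62.8, 68.4 and 65.4 FPKM in SN GV oocytes and 69.6, 63.7 and 70.3 FPKM in NSN GV oocytes. At MII they were 104, 102, 95.7 and 101 FPKM in oocytes from SN and 80.9, 87.7 and 118 FPKM in oocytes from NSN. Every MII library stood above every GV library. The log2 fold change was 0.74 (SE 0.15, adjusted p = 0.000357), a rise of 1.67-fold. Without the third MII library from NSN, which held the highest Sdha value, it was 0.56 (adjusted p = 0.000251), and with scaling by library totals it was 0.42.

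Sdhb, which encodes the iron-sulfur subunit that docks on SDHA, went the other way. It measured 57.0, 45.7 and 66.8 FPKM in SN GV oocytes and 70.9, 80.6 and 54.2 FPKM in NSN GV oocytes. After maturation it measured 1.17, 1.95, 1.72 and 1.21 FPKM in oocytes from SN and 5.27, 7.44 and 0.39 FPKM in oocytes from NSN. The groups did not overlap, and the counts behind the MII values were small, from 3 to 64 reads. The fold change of -4.47 on the log2 scale (SE 0.37, adjusted p = 2.03e-08) is a 22.1-fold lower level at MII.

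Sdhd and Sdhc encode the membrane anchor pair. Sdhd measured 195, 186 and 180 FPKM in SN GV oocytes and 153, 188 and 179 FPKM in NSN GV oocytes, then 13.2, 14.04, 9.24 and 14.4 FPKM in MII oocytes from SN and 10.6, 6.38 and 4.29 FPKM in those from NSN. It fell by 4.11 on the log2 scale (SE 0.20, adjusted p = 6.13e-11), which is 17.3-fold. Its partner Sdhc fell less. Sdhc measured 129, 99.6 and 108 FPKM in SN GV oocytes and 113, 155 and 117 FPKM in NSN GV oocytes, then 46.7, 47.9, 64.8 and 73.5 FPKM in MII oocytes from SN and 32.9, 33.5 and 14.7 FPKM in those from NSN. Its log2 fold change was -1.44 (SE 0.21, adjusted p = 1.36e-05), or 2.71-fold lower, with no overlap between the stages. The 95% intervals of the Sdhc change (-1.89 to -0.99) and the Sdhd change (-4.54 to -3.69) did not overlap, and the difference itself was not tested.

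Among the assembly factors, the FAD attachment factor Sdhaf2 fell by 2.45 on the log2 scale (SE 0.20, adjusted p = 1.77e-08), from 14.01 to 19.5 FPKM over the GV libraries to 1.91 to 4.21 FPKM over the MII libraries. Sdhaf3 fell by 2.31 (SE 0.34, adjusted p = 1.19e-05), from 2.45 to 4.18 FPKM at GV to 0.13 to 1.40 FPKM at MII. At these low levels limma on log2(FPKM + 1) gave -1.19 for Sdhaf3 (adjusted p = 0.000141). Both factors separated the stages completely. Sdhaf1, which acts in SDHB maturation, fell by 1.83 (SE 0.33, adjusted p = 0.000116), but its second NSN GV library, at 2.17 FPKM, lay within the MII range of 0.91 to 2.68 FPKM. Sdhaf1 shares 1733 bases with E130208F15Rik, an antisense gene on chromosome 7, and the libraries do not mark strand, so reads from the shared stretch cannot be assigned to either gene. Sdhaf4 had the smallest fall of the 7, 0.79 on the log2 scale (SE 0.18, adjusted p = 0.00104), and its stages overlapped. In all, 6 of the 8 members separated the stages without overlap, as 47.4% of all tested genes did.

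The unequal changes altered the proportions among the subunit transcripts within each library, where scaling between libraries does not enter. At GV, Sdha made up 15.6% ± 1.69 (SD, n = 6) of the summed subunit FPKM, Sdhb 14.5% ± 2.44, Sdhc 27.8% ± 2.45 and Sdhd 42.0% ± 3.34. At MII, Sdha made up 63.8% ± 10.6 (SD, n = 7), Sdhb 1.91% ± 2.03, Sdhc 27.8% ± 9.36 and Sdhd 6.49% ± 2.07. With the types pooled, the share of Sdhc had about the same mean at both stages, with a wider spread at MII. At GV it ranged from 24.9% to 31.8%. At MII it ranged from 28.3% to 38.6% in oocytes from SN and from 10.7% to 25.4% in those from NSN. These MII ranges did not overlap, the lowest share was in the third library from NSN, and the difference was not tested. The ratio of Sdha to Sdhb ranged from 0.790 to 1.498 at GV, with a median of 1.04, and from 11.8 to 303 at MII, with a median of 55.6. The top of that range is the third MII library from NSN, whose Sdhb value rests on 3 reads. The ratio of Sdhc to Sdhd went from 0.536 to 0.824 at GV to 3.11 to 7.01 at MII. The summed subunit level was 400 to 486 FPKM in the GV libraries and 130 to 190 FPKM in the MII libraries.

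**Figure D2:**
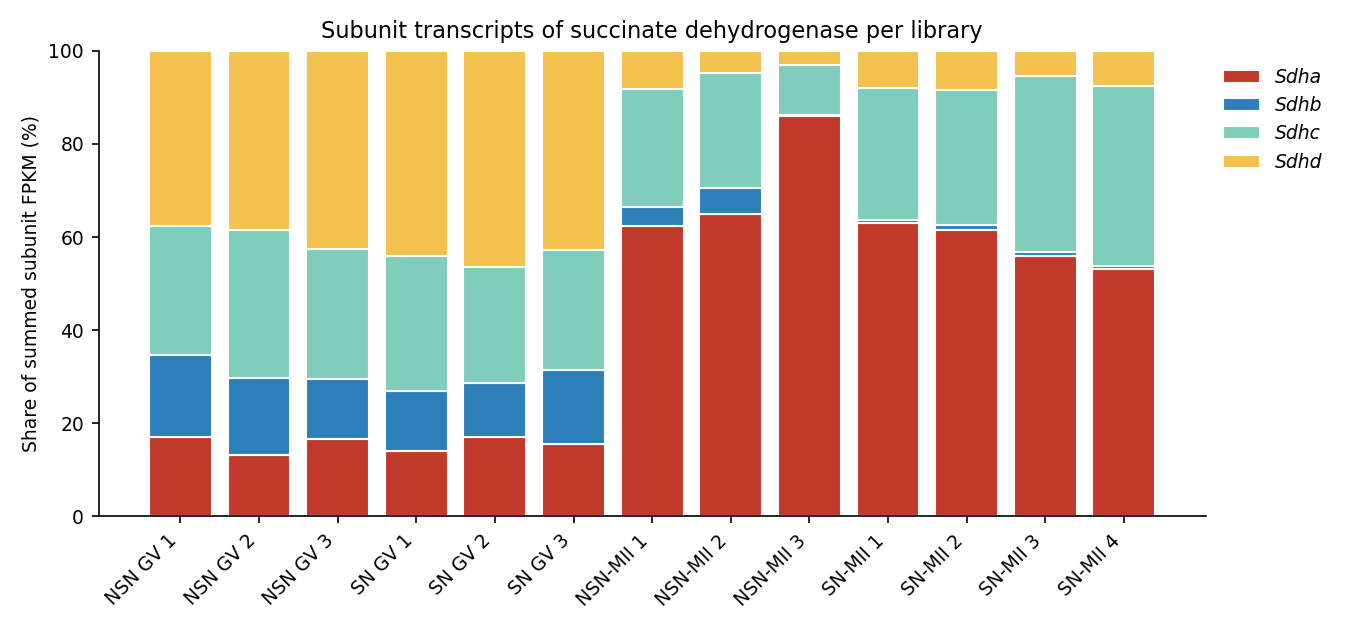
Share of each subunit transcript in the summed FPKM of Sdha, Sdhb, Sdhc and Sdhd, in percent, with 1 stacked bar per library. Sdha takes 13.1% to 17.1% in the GV libraries and 53.2% to 85.9% in the MII libraries, where Sdhb takes 5.51% at most.

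The stage comparison was then made within each oocyte type. In SN oocytes 7 of 8 members were called, against 56.3% of all genes, with Sdhaf4 as the exception. In NSN oocytes all 8 were called, again against 56.3% of all genes. Sdha rose by 0.76 on the log2 scale in SN (SE 0.21, adjusted p = 0.00505) and by 0.71 in NSN (SE 0.22, adjusted p = 0.0107). The NSN call on Sdha rests on the third MII library from NSN, since without it the log2 fold change was 0.36 (adjusted p = 0.0725). Sdhb fell by 5.06 in SN (SE 0.51) and fell by 3.88 in NSN (SE 0.53), and Sdhd fell by 3.72 in SN (SE 0.26) and by 4.50 in NSN (SE 0.30).

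Sdhc and Sdhaf4 had the largest gap between the types. Sdhc changed by -0.70 in SN (SE 0.28, adjusted p = 0.0434) and by -2.17 in NSN (SE 0.32, adjusted p = 3.12e-05). The SN call was lost when any of the 3 SN GV libraries was left out, and without the first, the second or the third MII library from SN, with log2 fold changes of -0.78 to -0.55 and adjusted p = 0.0567 to 0.177. Sdhaf4 changed by -0.01 in SN, with a 95% interval of -0.54 to 0.51, and by -1.57 in NSN (SE 0.27, adjusted p = 0.000147). Sdhaf1 changed by -2.11 in SN (SE 0.45, adjusted p = 0.000786) and by -1.55 in NSN (SE 0.49, adjusted p = 0.0122). The NSN call on Sdhaf1 was lost without the first NSN GV library (-1.31, adjusted p = 0.0515) or the third (-1.27, adjusted p = 0.0538). Sdhaf2 and Sdhaf3 were called lower in both types.

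Whether the stage change differed between the types was tested by the interaction term of the fit over all 13 libraries. No member was called, where 0.0176% of the 11375 genes were. At an unadjusted p under 0.05 there were 3 members: Sdhaf4 with a difference of -1.56 (SE 0.37, adjusted p = 0.310 in edgeR), Sdhc with -1.47 (SE 0.42, adjusted p = 0.480) and Sdhd with -0.78 (SE 0.36, adjusted p = 0.926). DESeq2 also called none, with an adjusted p = 0.0511 for Sdhaf4. Over all genes 5.33% had an unadjusted p under 0.05 in this test. The difference for Sdhb was 1.18, with a 95% interval of -0.27 to 2.62. It was 1.67 (adjusted p = 0.235) without the third MII library from NSN, 0.586 without the second and 0.48 with limma on log2(FPKM + 1). That for Sdha was -0.05, with an interval of -0.68 to 0.58. Without the third MII library from NSN the Sdha difference was -0.38 (adjusted p = 0.740 in edgeR), and without the second it was 0.078.

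**Figure D3:**
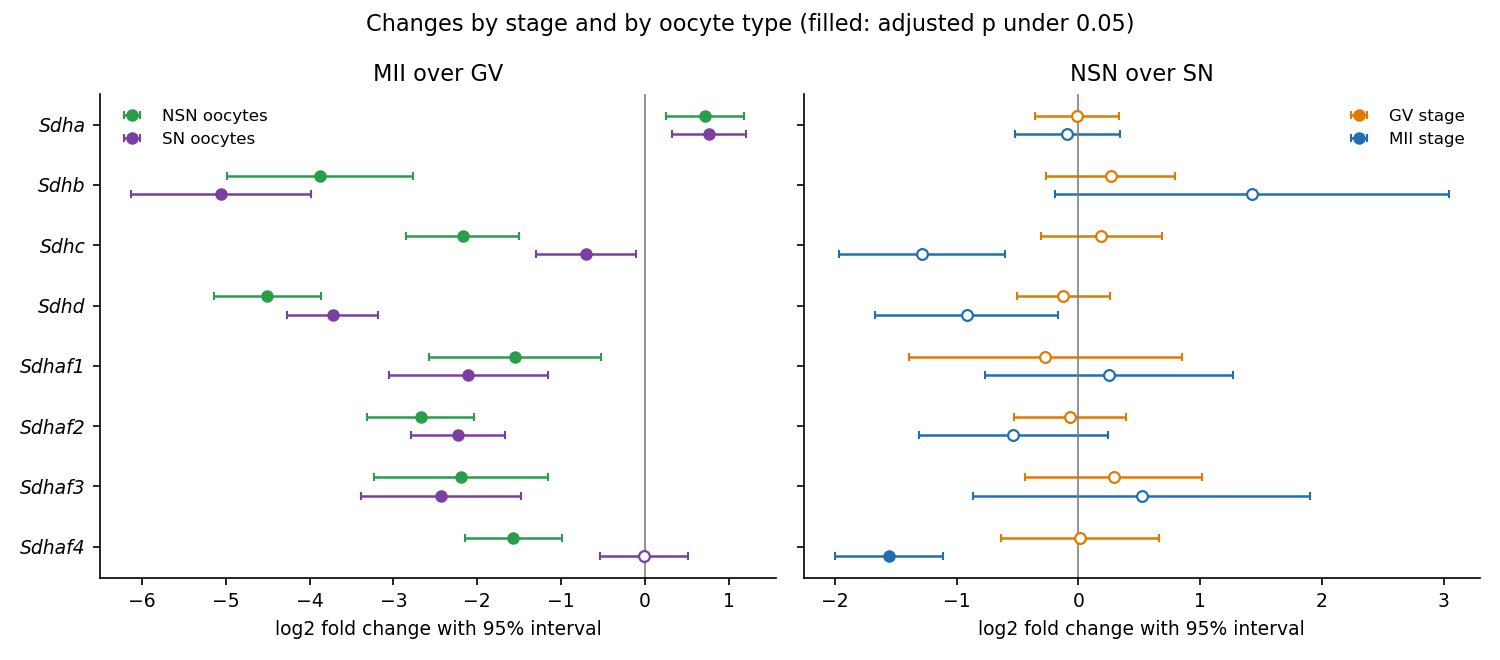
Log2 fold changes of the 8 genes with 95% intervals, MII over GV in each oocyte type (left) and NSN over SN at each stage (right). Filled points passed an adjusted p under 0.05 in edgeR and open points did not. On the left all points but Sdha and the SN value of Sdhaf4 lie at or below -0.70, and on the right only Sdhaf4 at MII (-1.56) is filled.

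The NSN and SN types were compared at GV first. None of the 8 members was called by edgeR, none had an unadjusted p under 0.05, and DESeq2 called none. In this comparison edgeR called 0 of 10839 genes (0% of them), with 190 genes (1.75%) at an unadjusted p under 0.05. The differences were small and of both signs, from -0.27 in Sdhaf1 to 0.29 in Sdhaf3. For Sdha the NSN over SN log2 fold change was -0.01 with a 95% interval of -0.36 to 0.33, for Sdhd it was -0.12 (-0.51 to 0.26), for Sdhc 0.19 (-0.31 to 0.68) and for Sdhb 0.27 (-0.26 to 0.79). For Sdhaf2 the interval was -0.53 to 0.39 and for Sdhaf4 -0.64 to 0.66. The interval of Sdhaf1, -1.40 to 0.85, and that of Sdhaf3, -0.44 to 1.02, were the widest, at the lowest levels of the set and with 3 oocytes a group.

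At MII the types differed in Sdhaf4. Its values were 130, 132, 144 and 161 FPKM in MII oocytes from SN and 52.0, 46.8 and 49.7 FPKM in those from NSN, so the groups did not overlap. At GV the same gene had spanned 120 to 204 FPKM in SN and 116 to 217 FPKM in NSN. The MII log2 fold change was -1.56 (SE 0.20, adjusted p = 0.0144), or 2.94-fold lower in oocytes from NSN. This was the only member called, where 0.259% of 10028 genes were called and 0.249% were called lower in NSN. DESeq2 gave an adjusted p = 2.5e-09. The edgeR call was lost without the third MII library from SN (adjusted p = 0.0679), the first from NSN (0.0897) or the second from NSN (0.108), at log2 fold changes of -1.55 to -1.49. It was also lost in edgeR with the replicate number as a block (-1.46, adjusted p = 0.200).

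Sdhc was also lower in every MII oocyte from NSN than in any from SN, with a log2 fold change of -1.29 (SE 0.31), but did not pass in edgeR (adjusted p = 0.134). DESeq2 called it (adjusted p = 0.00414), and so did edgeR without the filter on low counts (adjusted p = 0.0374). Groups without overlap were found for 10.2% of all genes in this comparison, and with NSN lower for 5.56%. Sdhd had a log2 fold change of -0.92 (SE 0.34, adjusted p = 0.395 in edgeR), and its groups overlapped. Sdhb had 1.42 (SE 0.74, adjusted p = 0.609) with 5.27 and 7.44 FPKM in the first and second MII libraries from NSN and 0.39 FPKM in the third. Without the third its log2 fold change was 1.94 (adjusted p = 0.0804), without the second it was 0.796 (adjusted p = 0.908), and limma on log2(FPKM + 1) gave 0.75. Sdha had -0.09, with a 95% interval of -0.52 to 0.34. The Sdha value was -0.40 (adjusted p = 0.157 in edgeR) without the third MII library from NSN. It was 0.058 (adjusted p = 0.968) without the first. The intervals of Sdhaf1 (-0.77 to 1.27), Sdhaf2 (-1.31 to 0.24) and Sdhaf3 (-0.87 to 1.90) all held 0. The comparisons of types at MII and of stages within a type share their MII libraries.

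Single oocytes of a group also varied. After subtraction of group means, Sdha went against Sdhb (r = -0.90 over 13 libraries, log2(FPKM + 1)) and against Sdhc (r = -0.89), while Sdhb and Sdhc went together (r = 0.78). These correlations lean on the third MII library from NSN, which had the highest Sdha and the lowest Sdhb, Sdhc and Sdhd of the MII oocytes. Over the other 12 libraries the values were -0.34, -0.67 and 0.19. The points share depth and composition within a library, and the 3 values are descriptions only.

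The genes with the pattern most like each subunit were taken from 5919 genes with a mean of at least 10 FPKM. They were ranked by Pearson's r of log2(FPKM + 1) over the 13 libraries. For Sdha they were Pcbp1 (r = 0.98), Trp53 and Chfr (both 0.97). For Sdhb they were Sh3bgrl3 (r = 0.997), Mien1 and Polr2i (both 0.99), and for Sdhd they were Ddx28 (r = 0.996), Rps16 and Paip2 (both 0.99). For Sdhc they were Actl6a, Cfl1 and Eef1e1, all at 0.98. Within groups, after subtraction of group means, the closest to Sdhb were Dctn3 (r = 0.99), the ATP synthase gene Atp5f1 (0.99) and the complex III gene Uqcrb (0.98), at 0.94, 0.89 and 0.90 without the third MII library from NSN. The closest to Sdha were Prep (r = 0.94), Pcbp1 (0.92) and Fbxo18 (0.91), which dropped to 0.77, 0.57 and 0.44 without that library. For Sdhc they were Fam210a (0.95), Dtymk (0.94) and Pop5 (0.94), at 0.86, 0.84 and 0.85 without it. For Sdhd they were Ptma (0.91), Cbx5 (0.91) and the complex I gene Ndufa7 (0.90), at 0.85, 0.84 and 0.82 without it. All these genes were picked as the closest of 5919, so the search itself favors high values of r.

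The promoters of Sdhb, the subunit with the largest fall, and of Sdha are given from RefSeq (GRCm38.p6). They run from 250 bases before to 50 after the start of the gene. Searched were GCATGCG, the core of the motif of NRF1, and CCGGAAG, a core of ETS factors such as GABP, each on both strands. The capitals mark matches.
Sdhb, chr4:140961021-140961320, plus strand: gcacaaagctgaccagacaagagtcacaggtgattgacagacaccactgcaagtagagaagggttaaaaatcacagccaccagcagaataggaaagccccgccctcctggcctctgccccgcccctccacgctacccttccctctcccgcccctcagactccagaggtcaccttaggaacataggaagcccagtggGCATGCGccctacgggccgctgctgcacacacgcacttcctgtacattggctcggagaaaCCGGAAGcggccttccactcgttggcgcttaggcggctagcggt
Sdha, chr13:74350191-74350490, minus strand: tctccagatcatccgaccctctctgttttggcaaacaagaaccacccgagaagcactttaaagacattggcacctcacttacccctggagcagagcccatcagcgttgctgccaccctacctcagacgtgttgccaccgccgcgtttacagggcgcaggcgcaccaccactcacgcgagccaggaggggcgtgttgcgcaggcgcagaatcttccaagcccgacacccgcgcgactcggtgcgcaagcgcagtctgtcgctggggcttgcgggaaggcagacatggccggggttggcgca
The Sdhb window held both cores and the Sdha window neither. Promoters of 7 members were in the table, and Sdhc was not. The CCGGAAG core was in 5 of the 7 (Sdhb, Sdhd, Sdhaf1, Sdhaf2 and Sdhaf3), against 8.86% of 32851 promoters, and GCATGCG was in Sdhb alone, against 3.58%. Sdha and Sdhaf4 had neither. The windows of the members were 57.7% to 76.7% G or C, and the background promoters were not matched for this. The windows of Sdha, Sdhd and Sdhaf2 also hold the annotated starts of opposite-strand genes (Ccdc127, Timm8b and Cpsf7), so they are not the members' alone. A match of letters is a description and shows no binding. Any part of these motifs in the stage changes was not tested.

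The enzymes on either side of succinate dehydrogenase are succinyl-CoA synthetase, which makes succinate, and fumarase, which uses fumarate. The shared alpha subunit Suclg1 fell by 0.75 on the log2 scale from GV to MII, and the ATP-specific beta subunit Sucla2 by 0.69, while the GTP-specific beta subunit Suclg2 rose by 1.59 (adjusted p = 1.01e-07 in edgeR). Suclg2 went from 24.1 ± 5.84 FPKM (SD, n = 3) in SN GV and 21.9 ± 1.998 FPKM (n = 3) in NSN GV oocytes to 67.2 ± 10.6 FPKM (n = 4) and 63.1 ± 6.56 FPKM (n = 3) in the MII oocytes from them. Sucla2 went from 143 ± 4.33 and 123 ± 11.3 FPKM to 63.0 ± 12.2 and 83.8 ± 4.85 FPKM in the same groups. Fumarase, Fh1, fell by 1.66, from 68.5 ± 4.22 and 69.9 ± 2.20 FPKM to 20.1 ± 1.83 and 19.9 ± 5.18 FPKM. Trap1, a mitochondrial chaperone known to bind succinate dehydrogenase, fell by 4.16 (SE 0.33, adjusted p = 1.1e-08), from 51.5 to 59.8 FPKM over the GV libraries to 0.47 to 4.30 FPKM over the MII libraries.

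The wider pathway lists were read against the background of 31.7% of genes higher and 36.9% lower. Of the other TCA cycle genes, 2 of 13 tested rose and 10 fell, with a median log2 fold change of -1.07. Besides Suclg2, the 2-oxoglutarate dehydrogenase gene Ogdh rose (0.78), and malate dehydrogenase Mdh2 (-4.90) and the isocitrate dehydrogenase subunit Idh3g (-4.40) fell the most. Genes for the entry of pyruvate had a median of 0.44, with 7 of 13 higher and 4 lower. The kinase Pdk1 (1.72) and the phosphatase Pdp1 (1.30) of pyruvate dehydrogenase led the rises, and pyruvate carboxylase Pcx (-3.41) and the pyruvate carrier subunit Mpc2 (-2.35) the falls.

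Each of the other respiratory complexes had 1 gene called higher, out of 9 to 36 tested. Complex II had 1 of its 4 subunits called higher, beside 31.7% of all genes tested. In complex I, 34 of 36 genes fell (median -3.25) and Ndufa10 rose (1.35), with Ndufb7 (-6.41) and Ndufa9 (-6.19) the lowest. In complex III, 8 of 9 fell (median -2.74) and Uqcrc2 rose (0.60), with Uqcrq (-4.71) and Uqcrc1 (-4.07) the lowest. In complex IV, 9 of 11 fell (median -1.28) and Cox8a rose (0.45), while Ndufa4 had a larger value that was not called (0.63, adjusted p = 0.0537 in edgeR), with Cox7c (-5.65) and Cox4i1 (-5.29) the lowest. In the ATP synthase, 14 of 15 fell (median -2.92) and Atp5b, its catalytic beta subunit, rose (0.45), with Atp5j2 (-5.44) and Atp5j (-5.32) the lowest.

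**Figure D4:**
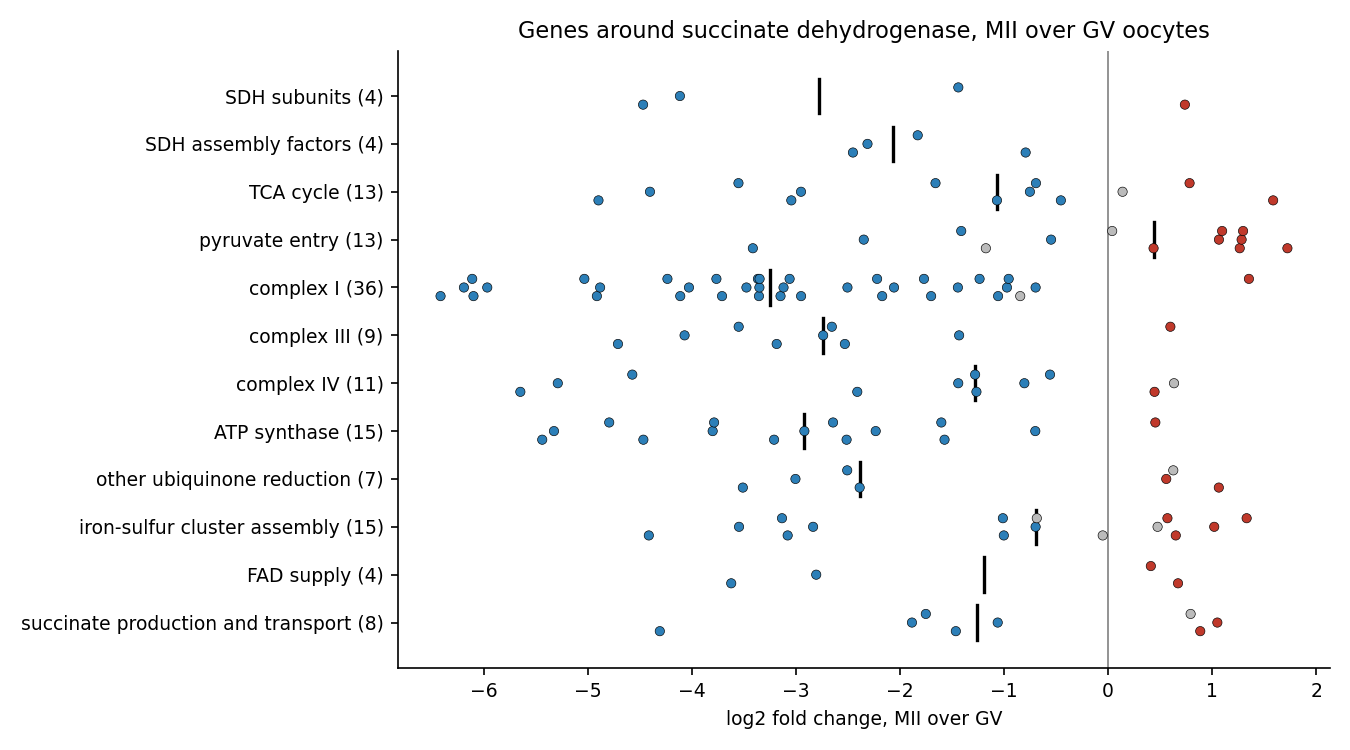
Log2 fold change, MII over GV, of the genes of succinate dehydrogenase and of 10 lists around it, with the number of tested genes in brackets. Each point is 1 gene, red for called higher, blue for called lower and grey for not called, and black bars are list medians. The subunits have a median of -2.78 and complex I one of -3.25, while the pyruvate entry list lies at 0.44.

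Genes for the supply of the cofactors went in both directions, as genes at large did (31.7% higher and 36.9% lower). In iron-sulfur cluster assembly, which feeds SDHB, 4 of 15 genes rose and 8 fell (median -0.70). The cysteine desulfurase Nfs1 (1.33) and its partner Lyrm4 (1.02) rose, and the glutaredoxin Glrx5 (-4.41) and the ferredoxin reductase Fdxr (-3.55) fell. Of 4 genes for FAD supply, Slc25a32 (0.67) and the riboflavin kinase Rfk (0.41) rose, and the FAD synthase Flad1 (-3.62) and the riboflavin transporter Slc52a2 (-2.80) fell. Among the other enzymes that reduce ubiquinone, 2 of 7 rose and 4 fell (median -2.39). Dhodh (1.06), of pyrimidine synthesis, and the electron transfer flavoprotein subunit Etfa (0.56) rose, and the partner subunit Etfb (-3.51) and the proline dehydrogenase Prodh (-3.00) fell. For other production and transport of succinate, 2 of 8 rose and 5 fell (median -1.26), led by the ketone body enzyme Oxct1 (1.05) and methylmalonyl-CoA mutase Mut (0.89) on one side, and by the epimerase Mcee (-4.31) and the dicarboxylate carrier Slc25a10 (-1.88) on the other. Between NSN and SN, neither edgeR nor DESeq2 called a gene of these 10 lists at GV (129 tested, 2 at an unadjusted p under 0.05) or at MII (119 tested, 6 at an unadjusted p under 0.05).

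The marker lists moved with the stage as well. Of 10 oocyte markers 2 were higher at MII (Gdf9 at 0.83 and Dppa3 at 0.58) and 6 lower, led by Zp3 (-3.84) and Zp2 (-3.27), with a median of -1.15. Of the 5 cumulus and granulosa markers that passed the filter, Kitl (1.26) and Cyp19a1 (1.04) were higher and Cyp11a1 (-3.34) lower. Between NSN and SN, edgeR called none of the 13 markers tested at GV (0 at an unadjusted p under 0.05) or the 13 tested at MII (5 at an unadjusted p under 0.05), and DESeq2 called only Bmp15 at MII.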

How the data were processed

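SMART-seq2 libraries of 13 single oocytes were analysed. The deposited expected counts (18939 genes, separate tables for GV and MII) and the deposited FPKM (49686 genes) were made by the authors with Trim Galore 0.4.4, Bowtie2 2.3.5 on mm10 and RSEM 1.2.28, and the submitters' notes also name DESeq2 1.20.0. RSEM shares out reads that map to several genes, reads carry no molecular identifiers, and no use of strand is stated. Expected counts were rounded to whole numbers here. Genes were filtered with filterByExpr (minimum count 10), scaled by TMM and tested with edgeR 4.0.16 in R 4.3.3 by the quasi-likelihood test, with Benjamini-Hochberg adjustment over all tested genes and a threshold of 0.05. NSN over SN was fitted within each stage, and stage and interaction contrasts in 1 fit of 4 groups over both count tables joined by symbol. Intervals are 95% from that test. Alternatives used DESeq2 1.42.0, limma 3.58.1 on log2(FPKM + 1) or log2(FPKM + 0.1), other scalings and filters, a replicate block and leaving out each library. The scripts were tested on simulated data. Positions and 3′ ends come from GENCODE for GRCm38. The members and gene lists were chosen with earlier results of these data known. Named were the 8 members, Trap1, the succinyl-CoA synthetase and fumarase genes, the 2 largest called rises and falls of each list from GV to MII, and the 3 genes most like each subunit. Neighbouring genes were added after the data were seen.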

Additional observations from a re-analysis of the deposited data

How the results depend on the processing

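All 8 members were called between MII and GV under every setting tried, in the same directions. At MII, NSN against SN gave 1 called member, 2 with DESeq2, 2 without the filter on low counts, 0 with the replicate number as a block (Sdhaf4 at -1.46, adjusted p = 0.200), and 0 to 1 when 1 library was left out. Genes called in that comparison numbered 26, 221 with DESeq2, 89 without the filter, 2 with the block and 2 to 233 with 1 library left out. The interaction called 2 genes, 0 to 12 with 1 library left out and 1 to 36 under other settings, and no member under any. Same-numbered libraries correlated at -0.46 to 0.20 after subtraction of group means. Best matches were with the own number for 5 of 6 libraries between NSN GV and MII from NSN. They were for 0 to 2 of 6 in the other pairs of groups. The labels give no shared origin, and whether same-numbered libraries had one was not tested. The numbers were not taken to pair the oocytes. Scaling by library totals shifted the median log2 fold change of all genes from GV to MII by -0.29 and upper quartile scaling by 0.13, and Sdha kept its rise under both (0.42 and 0.87). Within NSN, Sdha lost its call with library totals (0.38, adjusted p = 0.0610), Sdhaf1 with limma and no filter (-1.18, 0.0670), and within SN, Sdhc lost its call with upper quartile scaling (-0.56, 0.104).

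Signs turned only in differences that no setting called. Sdha between the types at GV was 0.010 with upper quartile scaling, 0.048 with limma on log2(FPKM + 1) with or without the filter and 0.049 with log2(FPKM + 0.1), and Sdhaf4 there was -0.010 with the block. The interaction of Sdhaf3 was -0.17 with limma with or without the filter and -0.033 with log2(FPKM + 0.1), and Sdhaf4 from GV to MII in SN was 0.12 with upper quartile scaling. With 1 library left out, the GV differences ranged from -0.052 to 0.026 (Sdha), -0.0075 to 0.33 (Sdhc), -0.59 to 0.14 (Sdhaf1), -0.16 to 0.062 (Sdhaf2) and -0.29 to 0.20 (Sdhaf4). Likewise Sdha at MII ranged from -0.40 to 0.058, the interaction of Sdha from -0.38 to 0.078 and of Sdhaf3 from -0.048 to 0.57, and Sdhaf4 from GV to MII in SN from -0.18 to 0.14. The causes were not tested. Of the 966 values recomputed, 921 kept direction and side of the threshold, 27 turned sign, 16 lost and 2 gained a call. Depth limits Sdhb, Sdhaf1 and Sdhaf3 most at MII, where counts of Sdhb were 3 to 64.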

Other observations

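The annotation places other genes beside or over the members, and their values were looked at after the data were seen. Timm8b, which encodes a small translocase of the mitochondrial intermembrane space, starts 97 bases from Sdhd on the opposite strand. From GV to MII it had a log2 fold change of -0.12 (SE 0.20, adjusted p = 0.608 in edgeR) beside -4.11 for Sdhd, and stood at 284 ± 66.4 FPKM (SD, n = 6) and 236 ± 39.6 FPKM (SD, n = 7). Ccdc127 starts 28 bases from Sdha on the opposite strand and fell by 0.66 (SE 0.23, adjusted p = 0.0194) beside the rise of 0.74 for Sdha. The difference within each pair was not tested. Cpsf7 shares 877 bases with Sdhaf2 on the opposite strand and was listed at 0.95 ± 1.10 FPKM at GV, beside 16.0 FPKM for Sdhaf2. The antisense gene E130208F15Rik over Sdhaf1 was listed at 0.37 to 7.03 FPKM at GV and 0.46 to 2.78 FPKM at MII, ranges that overlap those of Sdhaf1, and is not in the count tables. A processed pseudogene of 339 bases, Gm16125, lies within Sdha on the opposite strand.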
